A study of Mus musculus with 18 samples.

Results

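Collagen chains are the polypeptides that fold as trimers into the triple helices of the extracellular matrix, and their genes carry names of the form Col, a type number, the letter a and a chain number. All genes whose symbol has that form were taken, which gave 44 of the 19197 genes measured. They were sorted by known protein structure into 11 fibrillar chains, 6 chains of type IV collagen, the collagen of basement membranes, and 27 minor chains. The minor chains comprised 6 of type VI, 9 of the fibril-associated collagens, 2 multiplexins, 3 short-chain network chains, 4 transmembrane collagens and 3 others. The 18 libraries were made from RNA of the apex of mouse hearts on day 1 after surgery, all of the inbred strain C57BL/6. Each library is called a heart here for short. In MI_DCA hearts, 6 in number, a myocardial infarction (MI) had been followed by DCA at 10 mg/kg per day. MI_vehicle hearts (6) had an infarction and vehicle, and sham_vehicle hearts (6) a sham operation and vehicle. The labels do not spell out DCA, here read as deoxycholic acid, a bile acid, since the title of the study names TGR5, a receptor for bile acids. They give no age or sex and do not say that each library came from its own mouse, and the p-values therefore cover only the spread among these 18 libraries, which may be partly technical.

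Fibrillar collagens, chiefly types I and III, form the tensile fibres between cardiac muscle cells and later the scar of an infarct, and are made mainly by fibroblasts. Type IV collagen forms the sheet around cardiac muscle cells and under the endothelium, type VI forms beaded filaments between that sheet and the fibres, and multiplexins lie in the vascular basement membrane. In the first day after an infarct, muscle cells die and inflammatory cells enter, before most scar collagen is laid down. The microRNAs of the miR-29 family are known to bind collagen mRNAs in the heart and to lower them.

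Members of the miR-29 family share 1 seed, the stretch of bases 2 to 8 that pairs with a target, and their mature RNAs are shown because this seed recurs in the collagen family. The sequences are those of RefSeq on GRCm38.p6, with the seed in capitals. Only 1 location is given per name, and any further copy in the genome is not listed.
mmu-miR-29a-3p (chr6:31062673-31062694, minus strand): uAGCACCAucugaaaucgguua
mmu-miR-29b-3p (chr1:195037091-195037113, plus strand): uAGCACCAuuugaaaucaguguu
mmu-miR-29c-3p (chr1:195037600-195037621, plus strand): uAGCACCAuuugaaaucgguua
The complement of the seed, TGGTGCT, was searched on the sense strand of the longest annotated 3′ untranslated region of each gene in GENCODE release M21 on GRCm38. It occurred in 25 of the 44 collagen genes (56.8%), and in 13% of the 20979 genes with such a region. The median length of the region was 1032 bases in collagen genes and 954 bases in all genes. Sites numbered 44 in the collagen genes, and 11 of these genes had at least 2. Stretches of 25 bases around a site are shown for the chains with a site that rose most in MI_vehicle over sham_vehicle hearts, for Col4a4, which fell, and for Col1a1 and Col3a1 as main chains of the fibres, with the complement of the seed in capitals.
Col4a1 (chr8:11199759-11199783, minus strand): gccaccgtcacaacaTGGTGCTact
Col4a2, first site (chr8:11448344-11448368, plus strand): gtgggaaggccacgtTGGTGCTtat
Col4a4, first site (chr1:82453033-82453057, minus strand): ttccagcaaattcagTGGTGCTctc
Col5a1, first site (chr2:28037989-28038013, plus strand): ataactatgaacattTGGTGCTgaa
Col5a2 (chr1:45374963-45374987, minus strand): cttttcttttaatgaTGGTGCTaaa
Col5a3, first site (chr9:20770778-20770802, minus strand): cccacatgggctcctTGGTGCTgag
Col6a3 (chr1:90767409-90767433, minus strand): cgtgacctgtcaataTGGTGCTaaa
Col15a1 (chr4:47312485-47312509, plus strand): atccaatccacatatTGGTGCTaga
Col8a1 (chr16:57624703-57624727, minus strand): ctgtatattctaccaTGGTGCTaat
Col1a1 (chr11:94952523-94952547, plus strand): gtgggaaggaatttcTGGTGCTata
Col3a1 (chr1:45348967-45348991, plus strand): ttcaaaatgtctcaaTGGTGCTata
A match of these letters is a description of the sequence and was not tested as a site of repression.

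Head-to-head gene pairs are a feature of type IV collagen, in which 2 chains are transcribed away from a shared stretch of DNA. By the start sites used here, Col4a1 and Col4a2 on chromosome 8 start 21 bases apart on opposite strands. The annotated body of Col4a1 reaches beyond that start site, to base 11312889. The promoter windows of the 2 genes, from 250 bases before to 50 bases after the start site, share 78 bases. These 2 windows are shown because the 2 genes had nearly the same ratio in all groups, and that of Col4a4 because it differed from sham in the opposite direction. Sequences are those of RefSeq on GRCm38.p6, with GGGCGG and CCAAT in capitals on either strand, where a match on the other strand reads CCGCCC or ATTGG.
Col4a1 (chr8:11312777-11313076, minus strand): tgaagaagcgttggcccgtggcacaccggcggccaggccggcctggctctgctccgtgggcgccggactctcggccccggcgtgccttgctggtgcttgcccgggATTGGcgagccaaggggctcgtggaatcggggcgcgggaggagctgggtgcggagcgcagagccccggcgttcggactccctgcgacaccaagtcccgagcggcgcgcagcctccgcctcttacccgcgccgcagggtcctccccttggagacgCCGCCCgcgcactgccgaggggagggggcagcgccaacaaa
Col4a2 (chr8:11312555-11312854, plus strand): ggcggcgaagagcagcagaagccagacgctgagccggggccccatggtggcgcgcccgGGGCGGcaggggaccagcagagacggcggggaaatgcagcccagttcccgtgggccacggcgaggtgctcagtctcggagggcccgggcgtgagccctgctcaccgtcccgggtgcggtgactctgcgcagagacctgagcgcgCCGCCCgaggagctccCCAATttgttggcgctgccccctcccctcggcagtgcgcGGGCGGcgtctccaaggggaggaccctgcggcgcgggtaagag
Col4a4 (chr1:82586800-82587099, minus strand): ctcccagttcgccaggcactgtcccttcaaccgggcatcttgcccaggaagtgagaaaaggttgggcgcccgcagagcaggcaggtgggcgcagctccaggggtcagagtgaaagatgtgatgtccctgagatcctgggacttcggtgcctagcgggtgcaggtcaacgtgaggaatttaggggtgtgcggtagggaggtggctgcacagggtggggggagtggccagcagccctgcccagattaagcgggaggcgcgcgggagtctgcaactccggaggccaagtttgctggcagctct
GGGCGG, the letters of a GC box, occurred 1 time in the Col4a1 window, 3 times in that of Col4a2 and 0 times in that of Col4a4. Promoter windows were available for 35 of the 44 genes, 38 windows in all. On either strand, GGGCGG was in 60.5% of collagen windows and 35.7% of all 32851 windows, CCAAT in 34.2% and 37.4%, TATAAA in 13.2% and 13.6%, the AP-1 letters TGANTCA in 2.63% and 7.81%, and the SMAD-type letters CAGACA in 23.7% and 21%. The median GC content was 59.8% in collagen windows and 52.7% in all windows. A CCGCCC match can share its last bases with a CCAAT match.

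All values are FPKM, fragments per kilobase of transcript, scaled to the mapped reads. The libraries were made by hybrid capture, and how well each gene was captured is not known here. Levels of different genes, their sums and shares, and values of 0 carry that limit. The files hold no counts, and the mapped reads per library were estimated at 9600000 to 13800000 from the steps between low values. The estimates were 10100000 to 12800000 in MI_DCA, 11100000 to 13800000 in MI_vehicle and 9600000 to 10600000 in sham_vehicle hearts. Estimated depth was thus higher in every MI_vehicle heart than in any sham_vehicle heart, which matters most for low chains. Markers of cardiac muscle were present in every heart, with a summed level of 26799 to 46388 FPKM over 10 genes and none at 0. Infarcted hearts were not uniform. Over all tested genes, MI_vehicle heart 4 and MI_DCA hearts 1, 3 and 5 had a Pearson correlation of 0.984 to 0.990 with the mean of the sham_vehicle hearts, and the other 8 infarcted hearts 0.897 to 0.957. Nppb, the gene of the stress peptide BNP, was at 144 to 324 FPKM in those 4 hearts, at 1102 to 3500 FPKM in the other 8 and at 75.0 to 277 FPKM in sham_vehicle hearts. No heart was set aside. Tests used limma on log2(FPKM + 1) for genes with at least 1 FPKM in at least 6 of the 12 hearts compared, and the threshold was 0.05 on p-values adjusted by the Benjamini-Hochberg method over all genes tested. Genes under that minimum were given an exact permutation test (2-sided, 924 regroupings), adjusted over all such genes. On this scale the fold change of a weakly expressed gene comes out too small. Both infarcted groups are set against the same sham_vehicle hearts, and MI_vehicle hearts serve as control for MI_DCA hearts, so the 3 comparisons share samples.

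One day after infarction, 13 of the 20 collagen genes that passed the minimum were higher in MI_vehicle hearts than in sham_vehicle hearts (65% of them, against 38.3% of all 11969 genes tested), and 2 were lower (against 20.1% of all genes). By structure, 6 of 7 fibrillar chains, 3 of 4 type IV chains and 4 of 9 minor chains were higher. Their median log2 fold change was 0.69, beside 0.12 over all genes tested. Means were 2.08-fold higher for Col4a1, 2.31-fold for Col15a1 and 3.12-fold for Col8a1. Of the 23 collagen genes under the minimum, 1 was lower (against 1.08% of all such genes) and 0 were higher (3.29%). An unadjusted p under 0.05 was reached by 7 of the 23 (against 19.2% of all such genes), and Col9a1 was listed at 0 in every heart. Of those 7, Col12a1 was higher in MI_vehicle hearts, and Col4a3, Col6a5, Col6a6, Col11a1, Col22a1 and Col28a1 were lower. A gene could pass the minimum through 1 group alone, so these counts do not describe all 44. Of the 2 lower chains, Col4a4 passed it only through sham_vehicle hearts and Col20a1 mainly through them. In 9 tested chains every MI_vehicle heart lay above every sham_vehicle heart, as in 16.1% of all tested genes. In bulk tissue, fewer cells of a type and less RNA per cell cannot be told apart.

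**Figure D1:**
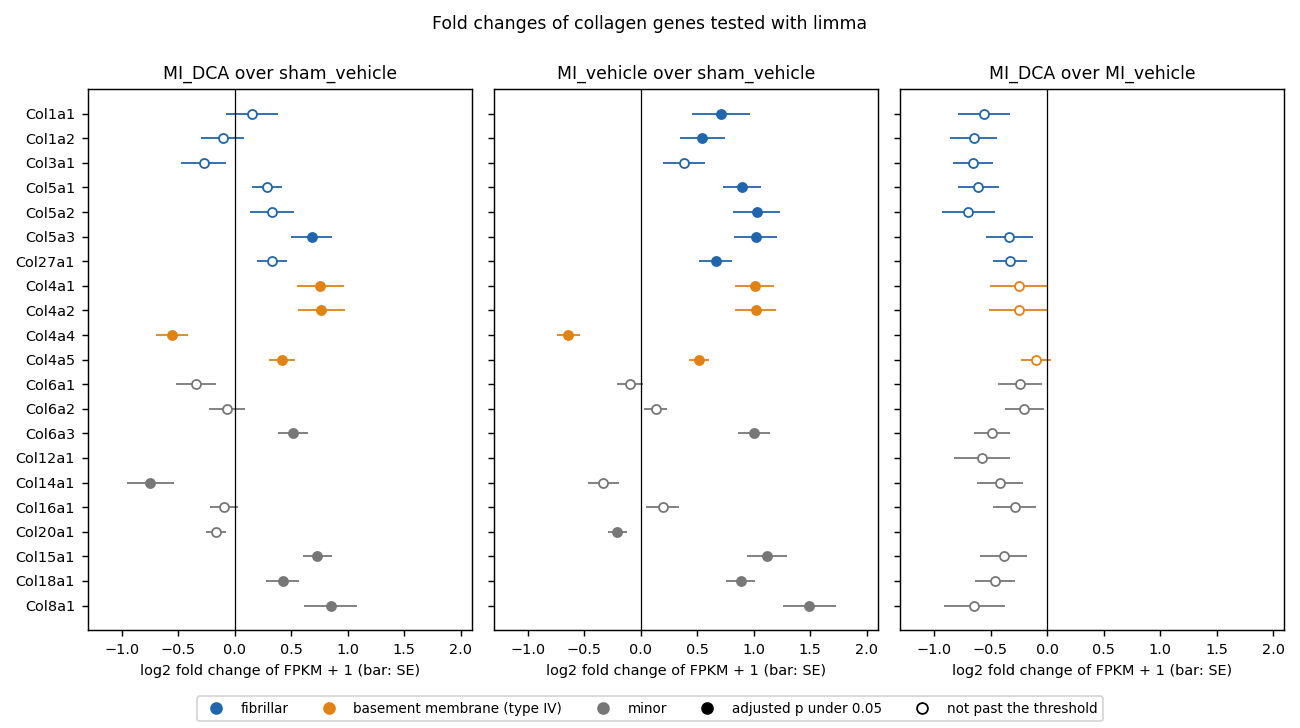
Log2 fold changes of FPKM + 1 (horizontal axis, bars are the SE) of each collagen gene tested with limma (vertical axis, 21 genes), in 3 comparisons, coloured by structural class. Filled points passed an adjusted p of 0.05. In MI_DCA over sham_vehicle 10 points are filled, in MI_vehicle over sham_vehicle 15, and in MI_DCA over MI_vehicle 0, although all 19 points of that comparison lie below 0.

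Among the fibrillar chains, Col1a1 and Col1a2 together form type I collagen. Gene coordinates are on GRCm38. Col1a1 (chr11:94936224-94953042) had 78.3, 114 and 157 FPKM in MI_DCA hearts, 109, 166 and 286 FPKM in MI_vehicle hearts, and 70.7, 105 and 175 FPKM in sham_vehicle hearts, each set giving the lowest, median and highest of 6 hearts. The groups overlapped, and MI_vehicle heart 6 was the highest of all hearts. It rose in MI_vehicle over sham_vehicle hearts (log2 fold change 0.71 with an SE of 0.26, adjusted p = 0.0285). The value for MI_DCA over sham_vehicle hearts did not pass (log2 fold change 0.15 with an SE of 0.23, adjusted p = 0.622). Col1a2 (chr6:4505618-4541543), the other chain of type I, had 49.6, 75.1 and 103 FPKM in MI_DCA hearts, 85.5, 118 and 186 FPKM in MI_vehicle hearts, and 58.9, 80.0 and 107 FPKM in sham_vehicle hearts. All 6 MI_vehicle hearts were above the sham_vehicle median, yet the groups overlapped (log2 fold change 0.55 with an SE of 0.20, adjusted p = 0.0307). Both type I calls were near the threshold. Leaving out any of 5 hearts, sham_vehicle 1, 3 or 4 or MI_vehicle 1 or 6, took their adjusted p to 0.0558 to 0.0714, and so did median-ratio scaling (0.0676 for Col1a1 and 0.0941 for Col1a2) and, for Col1a2, quantile normalization (0.0562). Col3a1 (chr1:45311538-45349706), the single chain of type III collagen, which mixes with type I in cardiac fibres, had 84.4, 138 and 169.9 FPKM in MI_DCA hearts, 165, 201 and 303 FPKM in MI_vehicle hearts, and 112, 158 and 223 FPKM in sham_vehicle hearts. It did not pass the test for infarction (log2 fold change 0.38 with an SE of 0.19, adjusted p = 0.0894). It passed without sham_vehicle heart 6 (adjusted p = 0.0381).

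Type V collagen sits inside type I fibrils and limits their width, and all 3 of its chains rose. Col5a1 (chr2:27886381-28039510) had 13.9, 15.8 and 22.1 FPKM in MI_DCA hearts, 17.8, 26.2 and 39.6 FPKM in MI_vehicle hearts, and 11.6, 13.1 and 17.2 FPKM in sham_vehicle hearts. Every MI_vehicle heart lay above every sham_vehicle heart, and MI_DCA hearts overlapped both groups (log2 fold change 0.89 with an SE of 0.17, adjusted p = 0.00075 for MI_vehicle over sham_vehicle). Col5a2 (chr1:45374331-45503282), which lies 24624 bases from Col3a1, had 11.7, 15.2 and 25.6 FPKM in MI_DCA hearts, 15.4, 27.3 and 41.7 FPKM in MI_vehicle hearts, and 8.70, 12.9 and 16.5 FPKM in sham_vehicle hearts. Only the lowest MI_vehicle heart lay within the sham_vehicle range (log2 fold change 1.03 with an SE of 0.21, adjusted p = 0.00126). Col5a3 (chr9:20770050-20815117) had 7.96, 11.2 and 16.8 FPKM in MI_DCA hearts, 10.3, 14.3 and 21.7 FPKM in MI_vehicle hearts, and 4.88, 6.50 and 8.92 FPKM in sham_vehicle hearts, and its MI_vehicle and sham_vehicle hearts did not overlap (log2 fold change 1.01 with an SE of 0.19, adjusted p = 0.000814). It was the 1 fibrillar chain of 7 that also passed in MI_DCA over sham_vehicle hearts (log2 fold change 0.68 with an SE of 0.18, adjusted p = 0.0243). That call was lost without sham_vehicle heart 3 (adjusted p = 0.0509) or MI_DCA heart 6 (0.0522). Col27a1, a fibrillar chain best known from cartilage, was low, with 1.06, 1.70 and 2.38 FPKM in MI_DCA hearts, 1.42, 2.56 and 3.41 FPKM in MI_vehicle hearts, and 0.68, 1.07 and 1.63 FPKM in sham_vehicle hearts, and rose in MI_vehicle hearts with some overlap (log2 fold change 0.66 with an SE of 0.15, adjusted p = 0.00194). In MI_DCA over sham_vehicle hearts Col27a1 passed when MI_DCA heart 3 was left out (adjusted p = 0.0273), and under no other alternative run here. The other 4 fibrillar chains, Col2a1, Col11a1, Col11a2 and Col24a1, did not exceed 0.69 FPKM in any heart and were not called. By limma with no filter, Col11a1 was lower in MI_vehicle over sham_vehicle hearts (adjusted p = 0.0391).

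**Figure D2:**
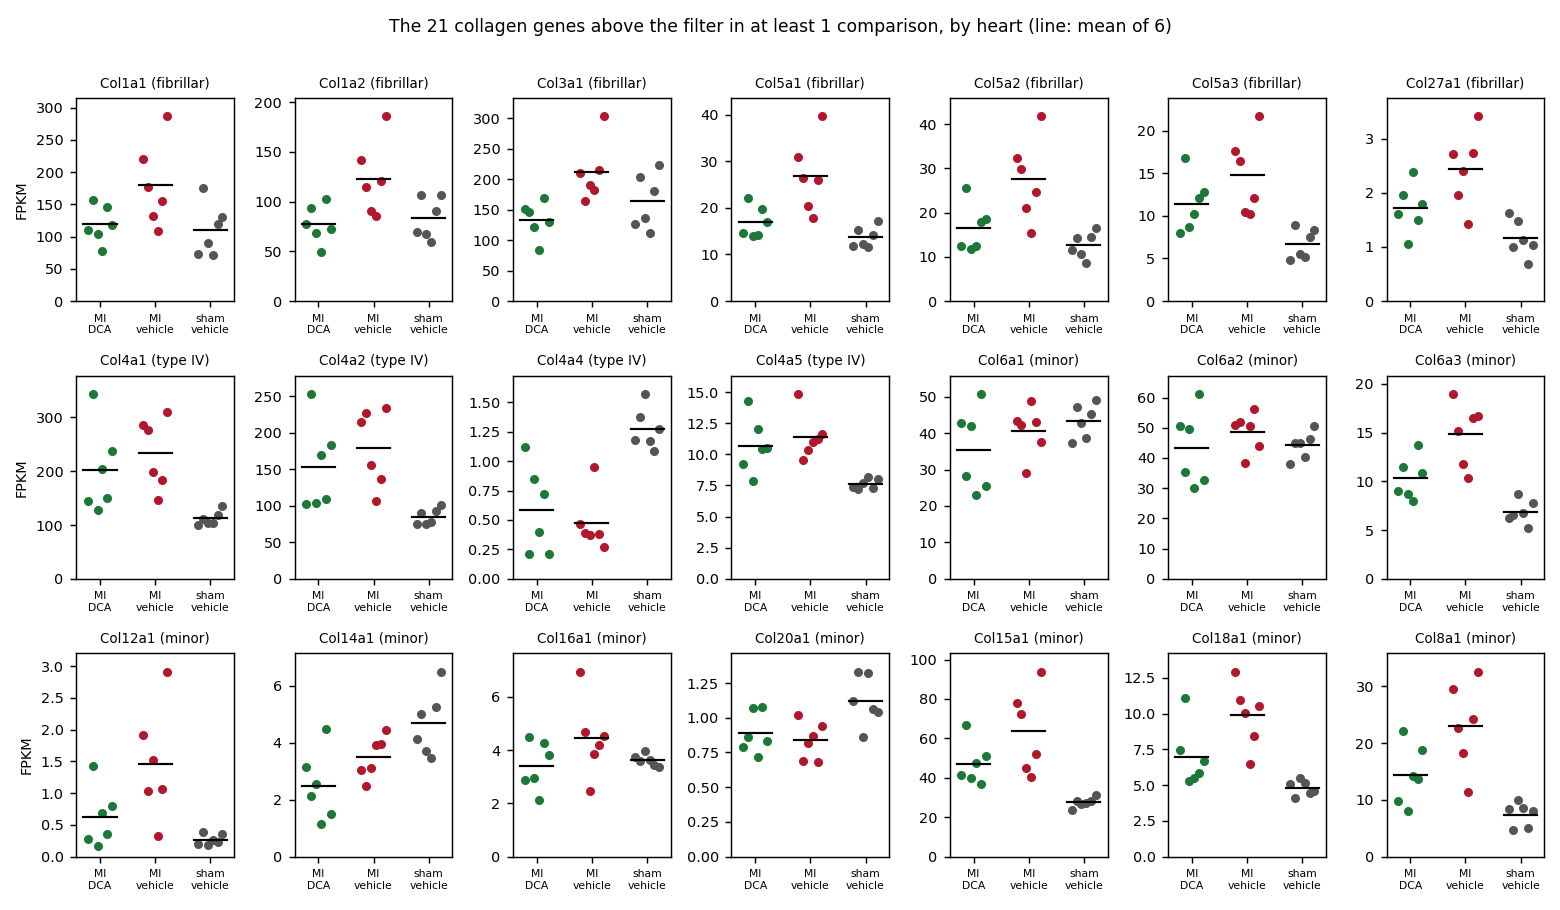
FPKM (vertical axes, each from 0) of the 21 collagen genes tested in at least 1 comparison, by heart, for MI_DCA, MI_vehicle and sham_vehicle (6 points each, the line is the mean). Type IV chains Col4a1 and Col4a2 show the same pattern of points, and Col4a4 runs the other way. In the Col1a2 panel the highest points are 103 FPKM in MI_DCA, 186 FPKM in MI_vehicle and 107 FPKM in sham_vehicle hearts.

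Col4a1, which forms the main type IV trimer with Col4a2, had the highest mean FPKM of all 44 genes in both infarcted groups, whereas Col3a1 had the highest in sham_vehicle hearts. Col4a1 (chr8:11198423-11312889) had 129, 177 and 343 FPKM in MI_DCA hearts, 146, 238 and 311 FPKM in MI_vehicle hearts, and 101, 108 and 135 FPKM in sham_vehicle hearts. No MI_vehicle heart overlapped a sham_vehicle heart, whereas the lowest MI_DCA heart lay below the highest sham_vehicle heart. It rose in both comparisons with sham (log2 fold change 0.76 with an SE of 0.21, adjusted p = 0.0257 for MI_DCA, and log2 fold change 1.01 with an SE of 0.17, adjusted p = 0.000444 for MI_vehicle). Col4a2 (chr8:11312805-11449287) had 102, 139 and 253 FPKM in MI_DCA hearts, 107, 186 and 235 FPKM in MI_vehicle hearts, and 74.6, 83.6 and 101 FPKM in sham_vehicle hearts, and in both infarcted groups every heart exceeded every sham_vehicle heart. Its values were nearly those of its partner (log2 fold change 0.77 with an SE of 0.21, adjusted p = 0.0259 for MI_DCA over sham_vehicle, and log2 fold change 1.02 with an SE of 0.18, adjusted p = 0.000597 for MI_vehicle over sham_vehicle). Col4a5 (chrX:141475370-141689236), a chain of a second type IV network, had 7.83, 10.4 and 14.2 FPKM in MI_DCA hearts, 9.54, 11.1 and 14.8 FPKM in MI_vehicle hearts, and 7.21, 7.53 and 8.18 FPKM in sham_vehicle hearts. Its rise was smaller, with no overlap between MI_vehicle and sham_vehicle hearts (log2 fold change 0.52 with an SE of 0.09, adjusted p = 0.000513), and it passed in MI_DCA hearts too (log2 fold change 0.42 with an SE of 0.11, adjusted p = 0.0244). The MI_DCA call was lost without sham_vehicle heart 2 (adjusted p = 0.0514), sham_vehicle heart 5 (0.0543) or MI_DCA heart 4 (0.0526).

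A second pair of neighbouring type IV genes went the other way. Col4a3 and Col4a4, which join Col4a5 in the network known from kidney and lung, were low in the apex. Col4a4 (chr1:82448419-82587034) had 0.21, 0.56 and 1.12 FPKM in MI_DCA hearts, 0.27, 0.385 and 0.95 FPKM in MI_vehicle hearts, and 1.09, 1.23 and 1.57 FPKM in sham_vehicle hearts. All 6 MI_vehicle hearts lay below all 6 sham_vehicle hearts, as in 5.74% of tested genes, and 1 MI_DCA heart reached the sham_vehicle range (log2 fold change -0.55 with an SE of 0.14, adjusted p = 0.0214 for MI_DCA, and log2 fold change -0.64 with an SE of 0.10, adjusted p = 0.000369 for MI_vehicle, each over sham_vehicle). Against MI_vehicle hearts, Col4a4 met the minimum of 1 FPKM only through sham_vehicle hearts, where it was higher. Its call and separation there are therefore not independent of the filter. Against MI_DCA hearts it met the minimum through sham_vehicle hearts and 1 MI_DCA heart. Col4a3 (chr1:82586921-82722059) had 0.04, 0.31 and 0.62 FPKM in MI_DCA hearts, 0.16, 0.195 and 0.46 FPKM in MI_vehicle hearts, and 0.59, 0.645 and 1.05 FPKM in sham_vehicle hearts, again with no overlap between MI_vehicle and sham_vehicle hearts (1.08% of genes under the minimum did so). It passed only just in the exact permutation test of MI_vehicle against sham_vehicle hearts (difference -0.47 on the log2 scale, p = 0.00216, the smallest this test can give, adjusted p = 0.0496), and not for MI_DCA (difference -0.38, p = 0.00649, adjusted p = 0.171). By limma, the MI_DCA value passed with no filter (adjusted p = 0.03465) and with a mean filter of 0.3 FPKM (0.0307). The bodies of Col4a3 and Col4a4 overlap by 114 bases and those of Col4a1 and Col4a2 by 85 bases. Whether counting used strand is not given in the sources used here, so reads from these stretches cannot be told apart. Col4a6 was at 0.06 to 0.29 FPKM and was not called.

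Minor chains divided by family. Type VI filaments are built from Col6a1, Col6a2 and one more chain, usually Col6a3. Col6a3 (chr1:90766860-90844001) had 7.96, 9.97 and 13.7 FPKM in MI_DCA hearts, 10.3, 15.8 and 18.9 FPKM in MI_vehicle hearts, and 5.26, 6.63 and 8.67 FPKM in sham_vehicle hearts, with every MI_vehicle heart above every sham_vehicle heart. It rose in MI_DCA hearts (log2 fold change 0.52 with an SE of 0.13, adjusted p = 0.0218) and in MI_vehicle hearts (log2 fold change 1.00 with an SE of 0.14, adjusted p = 0.000173), each over sham_vehicle. The MI_DCA call was lost without sham_vehicle heart 5 (adjusted p = 0.0510). Its partners did not pass the test. Col6a1 (chr10:76708792-76726044) had 23.1, 35.1 and 50.7 FPKM in MI_DCA hearts, 29.2, 42.7 and 48.8 FPKM in MI_vehicle hearts, and 37.2, 44.1 and 49.0 FPKM in sham_vehicle hearts, and the groups overlapped (log2 fold change -0.10 with an SE of 0.12, adjusted p = 0.477 for MI_vehicle over sham_vehicle). Col6a2 (chr10:76595756-76623630) had 30.1, 42.5 and 61.1 FPKM in MI_DCA hearts, 38.2, 50.7 and 56.1 FPKM in MI_vehicle hearts, and 38.1, 44.8 and 50.5 FPKM in sham_vehicle hearts, likewise with overlap (log2 fold change 0.13 with an SE of 0.10, adjusted p = 0.273), and its sign turned to -0.01 under median-ratio scaling. The alternative chain Col6a6 was low, at 0.02 to 0.35 FPKM in MI_DCA hearts, 0.02 to 0.43 FPKM in MI_vehicle hearts and 0.35 to 1.49 FPKM in sham_vehicle hearts. Its exact permutation p of 0.00433 became 0.159 after adjustment for MI_DCA over sham_vehicle hearts, and 0.0658 for MI_vehicle over sham_vehicle hearts. By limma with no filter it was called lower in MI_DCA (adjusted p = 0.0174) and MI_vehicle hearts (0.00208). A mean filter of 0.3 FPKM gave 0.0125 and 0.00139. Col6a4 and Col6a5 did not exceed 0.30 FPKM.

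Both multiplexins rose. Col15a1 (chr4:47207655-47313167), a proteoglycan at the outer face of vascular basement membranes, had 37.0, 44.5 and 66.8 FPKM in MI_DCA hearts, 40.6, 62.2 and 93.7 FPKM in MI_vehicle hearts, and 23.6, 27.8 and 31.3 FPKM in sham_vehicle hearts, and in each infarcted group no heart overlapped sham_vehicle. Its difference from sham had the smallest adjusted p of all collagens in MI_DCA hearts (log2 fold change 0.73 with an SE of 0.13, adjusted p = 0.00716), and was larger in MI_vehicle hearts (log2 fold change 1.12 with an SE of 0.18, adjusted p = 0.000341). Col18a1 (chr10:77052178-77166530), whose C-terminal fragment is endostatin, had 5.28, 6.28 and 11.1 FPKM in MI_DCA hearts, 6.45, 10.3 and 12.9 FPKM in MI_vehicle hearts, and 4.09, 4.83 and 5.51 FPKM in sham_vehicle hearts. MI_vehicle hearts stood clear of sham_vehicle hearts (log2 fold change 0.88 with an SE of 0.13, adjusted p = 0.000203), while MI_DCA hearts overlapped them and passed only just (log2 fold change 0.42 with an SE of 0.14, adjusted p = 0.0483). Leaving out any 1 of 10 of the 12 hearts took that adjusted p to 0.055 to 0.0967. It was also lost with a pseudocount of 5, with either other filter, with either other scaling and in 1 fit of all 3 groups (0.0511 to 0.0751). At transcript level, 1 model of Col18a1 held 95.2% of the gene's mean FPKM in MI_DCA hearts, 95.4% in MI_vehicle hearts and 79.5% in sham_vehicle hearts. It ranged from 4.32 to 11 FPKM in MI_DCA, 6.01 to 12.6 FPKM in MI_vehicle and 3.27 to 4.65 FPKM in sham_vehicle hearts. Short reads divide such values between models with an error that was not tested.

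On the scale of log2(FPKM + 1), Col8a1 (chr16:57624256-57754737), a short-chain collagen of vessel walls, had the largest fold change of the chains that passed in each comparison with sham. By means of MI_DCA and sham_vehicle hearts, the fall of the low chain Col4a4 was larger, 2.18-fold against a rise of 1.95-fold for Col8a1. Col8a1 had 8.11, 13.9 and 22.2 FPKM in MI_DCA hearts, 11.3, 23.4 and 32.6 FPKM in MI_vehicle hearts, and 4.60, 8.15 and 10.0 FPKM in sham_vehicle hearts. No MI_vehicle heart was as low as any sham_vehicle heart (log2 fold change 1.49 with an SE of 0.23, adjusted p = 0.000299), and 5 of 6 MI_DCA hearts were above the sham_vehicle median (log2 fold change 0.85 with an SE of 0.23, adjusted p = 0.0268). That MI_DCA call was lost without sham_vehicle heart 2 or 5 or MI_DCA heart 2, 4 or 6 (adjusted p = 0.0514 to 0.0610). Its usual partner Col8a2 did not exceed 0.21 FPKM, so the ratio of the 2 chains was not tested.

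Fibril-associated collagens sit on the surface of fibres. Col14a1 (chr15:55307644-55520803) had 1.14, 2.33 and 4.48 FPKM in MI_DCA hearts, 2.47, 3.51 and 4.44 FPKM in MI_vehicle hearts, and 3.45, 4.57 and 6.48 FPKM in sham_vehicle hearts. It fell in MI_DCA hearts relative to sham_vehicle hearts (log2 fold change -0.75 with an SE of 0.21, adjusted p = 0.0276), and its lower values in MI_vehicle hearts did not pass (log2 fold change -0.33 with an SE of 0.14, adjusted p = 0.0566), although they did under both other scalings (adjusted p = 0.0196 with median ratios and 0.0116 with quantiles), and without MI_vehicle heart 4 or 6 or sham_vehicle heart 3 or 4 (0.0304 to 0.0452). The MI_DCA call was lost when any of 6 hearts was left out, sham_vehicle 2, 5 or 6 or MI_DCA 2, 4 or 6, with an adjusted p of 0.0541 to 0.0605. Col12a1, which is known to appear on fibres under tension, was at 0.17 to 1.43 FPKM in MI_DCA hearts, 0.33 to 2.91 FPKM in MI_vehicle hearts and 0.18 to 0.38 FPKM in sham_vehicle hearts. Its mean was 5.49-fold higher in MI_vehicle than in sham_vehicle hearts, but the exact permutation p of 0.00649 became 0.0787 after adjustment. Tested by limma instead, it passed with no filter (adjusted p = 0.0040) and with a mean filter of 0.3 FPKM (0.00219). Col20a1 was lower in MI_vehicle than in sham_vehicle hearts by a small margin (log2 fold change -0.21 with an SE of 0.08, adjusted p = 0.0466), which was lost on leaving out any of 10 of the 12 hearts and with either other pseudocount (adjusted p = 0.0508 to 0.0996). Col20a1 had passed the minimum mainly through sham_vehicle hearts, where it was higher. Col16a1 was not called, but passed in MI_vehicle over sham_vehicle hearts without MI_vehicle heart 3 (adjusted p = 0.0325). The remaining fibril-associated, transmembrane and other minor chains did not exceed 1.14 FPKM in any heart, and none of them was called. By limma, Col28a1 was lower in MI_vehicle over sham_vehicle hearts with no filter (adjusted p = 0.0129) and with a mean filter of 0.3 FPKM (0.0117). With no filter, Col22a1 (0.0356) and Col25a1 (0.0354) were lower in MI_DCA over sham_vehicle hearts.

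In MI_DCA hearts, 8 of the 20 tested collagen genes were higher than in sham_vehicle hearts (against 15.5% of all 11842 genes tested) and 2 were lower (against 8.33%). These were 1 of 7 fibrillar chains, 3 of 4 type IV chains and 4 of 9 minor chains that rose, and Col4a4 and Col14a1 that fell. The median log2 fold change of the tested members was 0.31, beside 0.05 over all genes tested. Among the 23 genes under the minimum 0 were called, and 7 had an unadjusted exact permutation p under 0.05 (against 11.9% of all such genes), all 7 lower in MI_DCA hearts. Only Col4a2 and Col15a1 had no MI_DCA heart within the sham_vehicle range, where 6.31% of all tested genes were separated upwards and 2.84% downwards. Single hearts changed these counts. The number of higher collagen genes was 3 without MI_DCA heart 4 or 6 or without sham_vehicle heart 5, 4 without sham_vehicle heart 2 or 3, and 6 to 9 without any other heart. Calls over all genes dropped in the same omissions, from 1830 higher with all hearts. They were 1019 without MI_DCA heart 4, 876 without MI_DCA heart 6 and 741 without sham_vehicle heart 5. Without sham_vehicle heart 2 they were 888, and without sham_vehicle heart 3 they were 1021. The calls of Col4a4 and Col15a1 in MI_DCA over sham_vehicle hearts were the ones that no alternative run here ended. Over all these omissions the adjusted p of Col4a1 reached 0.0563 and that of Col4a2 0.0568, while their log2 fold changes stayed between 0.59 and 0.87 for Col4a1 and 0.61 and 0.87 for Col4a2. Without the MI_DCA hearts nearest to sham the counts of higher collagen genes were 7 (heart 1), 9 (heart 3) and 8 (heart 5), beside 2222, 2623 and 2018 over all genes. Without MI_vehicle heart 4 the collagen counts for MI_vehicle over sham_vehicle stayed at 13 higher and 2 lower. Over all genes they went from 4583 to 5063 higher and from 2408 to 2754 lower.

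Between MI_DCA and MI_vehicle hearts no collagen gene was called, and 0% of the 12004 genes tested were called in either direction, with the smallest adjusted p at 0.301. At an unadjusted p under 0.05, 1299 genes (10.8%) differed, of which 1107 (9.22% of those tested) were lower in MI_DCA hearts. All 19 collagen genes tested had a fitted value below 0, as did 64.8% of all genes, and their median was -0.42 beside -0.06 over all genes. Over all 44 chains, means were lower in MI_DCA hearts for 34 and higher for 9, beside 11315 and 6347 of all genes. Col4a4 and Col20a1, tested against sham, fell under the minimum here, with MI_DCA means 1.24-fold and 1.07-fold those of MI_vehicle. Col12a1 is among the 19 mainly through MI_vehicle hearts. Under median-ratio scaling and quantile normalization the 19 values also all lay below 0, with medians of -0.36 and -0.35. The median was -0.61 for the 7 fibrillar chains, -0.25 for the 3 type IV chains and -0.42 for the 9 minor chains. Col5a2 had the largest fitted difference (log2 fold change -0.70 with an SE of 0.24, adjusted p = 0.407), and Col3a1 the smallest unadjusted p by limma, 0.0028 (log2 fold change -0.66 with an SE of 0.18, adjusted p = 0.407). Col1a2 (log2 fold change -0.65 with an SE of 0.21, adjusted p = 0.407) and Col5a1 (log2 fold change -0.61 with an SE of 0.18, adjusted p = 0.407) were close to them. In each of these 4 chains 0 of 6 MI_DCA hearts lay above the MI_vehicle median. Col4a1 and Col4a2 differed by -0.25 each, with an SE of 0.26. The groups overlapped in all 44 genes, while of all tested genes 0.075% were separated upwards and 0.467% downwards, and of those under the minimum 0.0474% and 0.237%. A p above the threshold does not show that the groups were alike.

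Summed over all 44 genes, collagen took 737 to 1261 FPKM in MI_DCA hearts, 870 to 1690 FPKM in MI_vehicle hearts and 600 to 915 FPKM in sham_vehicle hearts. Only 1 MI_vehicle heart, heart 4, was within the sham_vehicle range. The share of type IV chains in this sum was 28.9% to 49.9% in MI_DCA hearts, 30.2% to 40.4% in MI_vehicle hearts and 23.8% to 32.0% in sham_vehicle hearts. It was 45.2% to 49.9% in MI_DCA hearts 2, 4 and 6 and 28.9% to 32.9% in MI_DCA hearts 1, 3 and 5. The fibrillar share was 32.6% to 50.3% in MI_DCA hearts, 41.8% to 52.2% in MI_vehicle hearts and 44.8% to 59.3% in sham_vehicle hearts. In single genes, MI_vehicle heart 6 was the highest of its group in 13 of 21 tested chains and MI_vehicle heart 4 the lowest in 13. MI_DCA heart 2 was the highest of its group in 12 and heart 4 the lowest in 9.

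**Figure D3:**
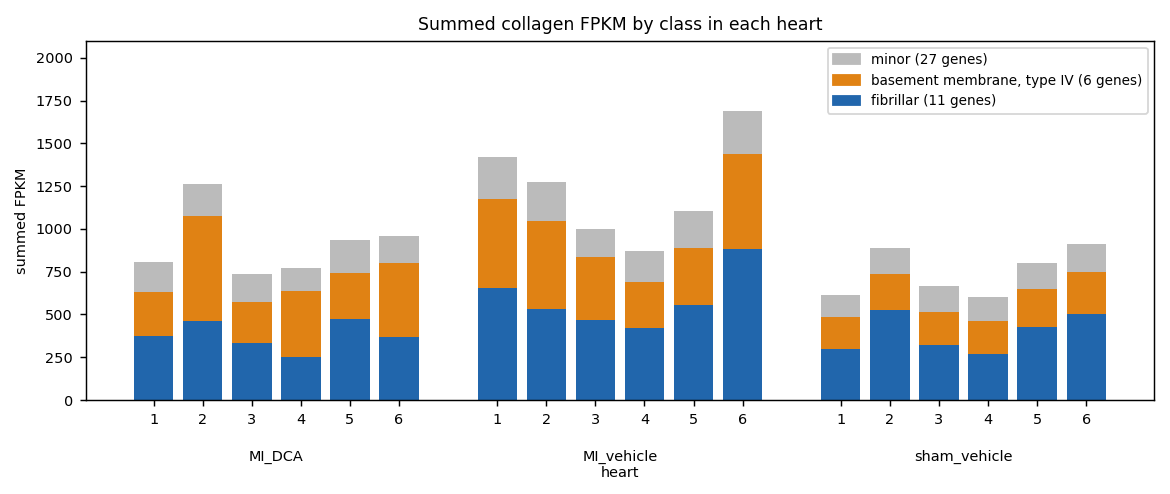
Summed FPKM of the 11 fibrillar, 6 type IV and 27 minor collagen genes (vertical axis, stacked) in each of 18 hearts (horizontal axis, numbered within MI_DCA, MI_vehicle and sham_vehicle). MI_DCA hearts 2, 4 and 6 hold a larger type IV part (45.2% to 49.9%) than any sham_vehicle heart (at most 32.0%), and MI_vehicle heart 6 has the largest sum, 1690 FPKM.

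Ratios between chains that assemble together were compared within each heart, which removes any scaling of a library. Of 13 ratios listed, 10 could be tested, and the 30 exact permutation tests were adjusted together. Col4a1 to Col4a2 was at 1.21 to 1.41 in MI_DCA hearts, 1.22 to 1.37 in MI_vehicle hearts and 1.25 to 1.39 in sham_vehicle hearts. The groups overlapped, with a difference of -0.01 on the log2 scale for each infarcted group over sham_vehicle (adjusted p = 0.86 for MI_DCA and 0.749 for MI_vehicle). Col6a3 to Col6a1 had the largest change, with 0.208 to 0.428 in MI_DCA hearts, 0.212 to 0.443 in MI_vehicle hearts and 0.116 to 0.202 in sham_vehicle hearts. No infarcted heart overlapped a sham_vehicle heart (difference 0.93 for MI_DCA and 1.21 for MI_vehicle, adjusted p = 0.0162 for each by the exact permutation test). Col6a1 to Col6a2 was 0.766 to 0.847 in MI_DCA hearts, 0.763 to 0.966 in MI_vehicle hearts and 0.957 to 1.06 in sham_vehicle hearts. It fell by 0.28 on the log2 scale in MI_DCA hearts (adjusted p = 0.0162) and by 0.24 in MI_vehicle hearts (adjusted p = 0.0244, both by the exact permutation test), with 1 MI_vehicle heart in the sham_vehicle range.

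A chain of type V was set against a chain of type I in the ratio of Col5a2 to Col1a2, which was 0.161 to 0.274 in MI_DCA hearts, 0.180 to 0.260 in MI_vehicle hearts and 0.134 to 0.165 in sham_vehicle hearts. MI_DCA hearts overlapped sham_vehicle hearts at their low end (difference 0.46, adjusted p = 0.0217), and MI_vehicle hearts did not overlap them (difference 0.53, adjusted p = 0.0162, both by the exact permutation test). Without any 1 sham_vehicle heart, the MI_DCA value had an adjusted p of 0.0722 to 0.0909. Col5a3 to Col5a1 rose in MI_DCA hearts, with 0.543 to 0.761 in MI_DCA and 0.417 to 0.585 in sham_vehicle hearts (difference 0.46, adjusted p = 0.0217, exact permutation test), and the MI_vehicle range was 0.469 to 0.624 (0.18, adjusted p = 0.199). Col1a1 to Col3a1 was 0.728 to 1.08 in MI_DCA, 0.597 to 1.08 in MI_vehicle and 0.576 to 0.859 in sham_vehicle hearts. It passed in MI_DCA over sham_vehicle hearts (difference 0.43, adjusted p = 0.0244, exact permutation test) and not in MI_vehicle over sham_vehicle hearts (0.33, adjusted p = 0.18). The MI_DCA call was lost without MI_DCA heart 2 or without any sham_vehicle heart other than heart 2 (adjusted p = 0.0568 in each case). No ratio passed between MI_DCA and MI_vehicle hearts, where the smallest adjusted p was 0.0779, for Col5a3 to Col5a1. That ratio passed there without MI_DCA heart 1 (difference 0.34, adjusted p = 0.0217). Against sham_vehicle, Col1a1 to Col1a2 passed in MI_DCA hearts without sham_vehicle heart 2 (0.33, adjusted p = 0.0130). Col4a5 to Col4a1 passed in MI_vehicle hearts without MI_vehicle heart 4 (-0.56, adjusted p = 0.0186, all 3 by the exact permutation test).

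**Figure D4:**
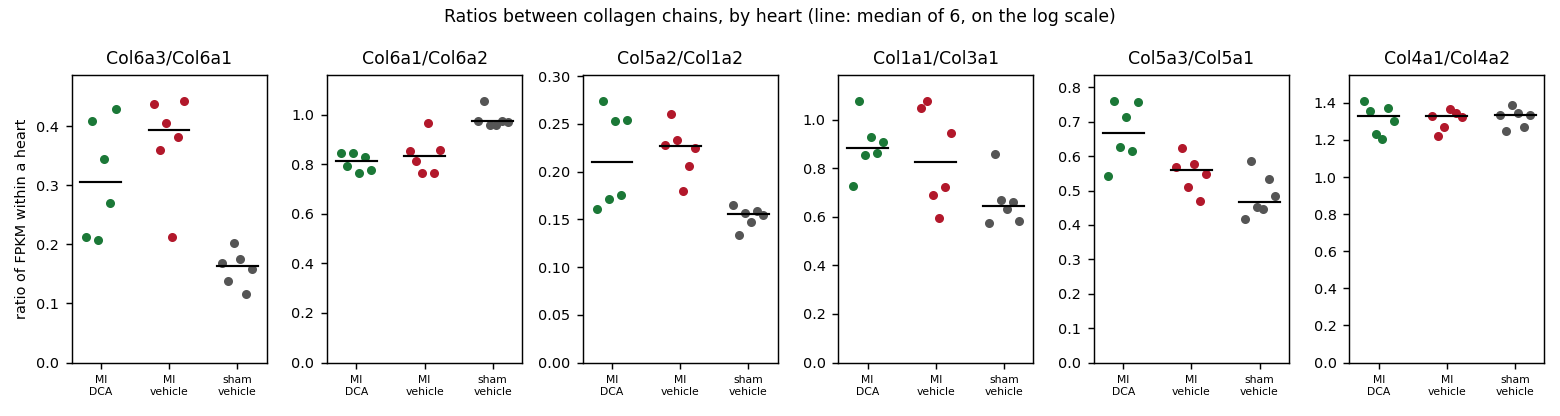
Ratios of FPKM between pairs of collagen chains within a heart (vertical axes, each from 0) in MI_DCA, MI_vehicle and sham_vehicle hearts (6 points each, the line is the median on the log scale). Col6a3/Col6a1 separates infarcted from sham_vehicle hearts (0.208 to 0.443 against 0.116 to 0.202), whereas Col4a1/Col4a2 stays at 1.21 to 1.41 in all 18 hearts.

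The seed complement of miR-29 was read against these calls as a description. Among the chains tested by limma, 11 of the 13 that rose in MI_vehicle over sham_vehicle hearts carry it, as do 1 of the 2 that fell and 3 of the 5 that passed in neither direction. The same shares over all tested genes were not computed, so these counts show no link between the site and a rise. Col18a1 and Col1a2 rose and lack it, and Col4a4 fell and has it 2 times. The files measure mRNA, and the level of these microRNAs was not analysed here.

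Genes that make and process collagen were followed through lists of known functions. Their counts stand beside 15.5% of all tested genes higher and 8.33% lower in MI_DCA over sham_vehicle hearts, and 38.3% higher and 20.1% lower in MI_vehicle over sham_vehicle hearts, and no list was tested against these shares. Of 9 tested genes of prolyl hydroxylation, which stabilises the triple helix, 5 rose and 0 fell in MI_DCA over sham_vehicle hearts (median 0.24), led by P4ha1 (0.56), P4hb (0.52) and Ppib (0.50). In MI_vehicle over sham_vehicle hearts 7 rose and 0 fell (median 0.54). The catalytic subunit P4ha1 was at 27.9 ± 8.62 FPKM in MI_DCA, 38.3 ± 11.3 FPKM in MI_vehicle and 18.1 ± 2.87 FPKM in sham_vehicle hearts (SD, n = 6). Its rise in MI_vehicle hearts (log2 fold change 1.01 with an SE of 0.17, adjusted p = 0.000383) was followed by those of P4hb (0.91) and P3h1 (0.71). Of 5 genes of lysyl hydroxylation and glycosylation, 1 rose and 1 fell in MI_DCA hearts (Plod3 0.70, Colgalt2 -0.44), and 3 rose and 1 fell in MI_vehicle hearts (Plod3 0.96, Colgalt2 -0.68, Colgalt1 0.63).

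Among chaperone and export genes 3 of 10 rose in MI_DCA hearts and 5 of 9 in MI_vehicle hearts, each over sham_vehicle. Serpinh1, which encodes the collagen chaperone HSP47, was at 303 ± 125 FPKM in MI_DCA, 320.2 ± 106 FPKM in MI_vehicle and 131 ± 11.2 FPKM in sham_vehicle hearts (SD, n = 6). It rose in MI_DCA (log2 fold change 1.11 with an SE of 0.22, adjusted p = 0.0109) and in MI_vehicle hearts (log2 fold change 1.22 with an SE of 0.18, adjusted p = 0.000243), each over sham_vehicle. Hspa5 (0.89 in both groups) and Fkbp14 (0.52 in MI_DCA and 0.75 in MI_vehicle hearts) came next. Propeptide cleavage had 1 of 4 genes higher in MI_DCA hearts (Bmp1 0.37) and 3 of 4 in MI_vehicle hearts (Bmp1 0.60, Adamts2 0.49, Pcolce 0.31). Of 4 tested crosslinking enzymes, 3 rose in MI_DCA hearts, Loxl3 (0.82), Loxl2 (0.55) and Loxl1 (0.51), and all 4 in MI_vehicle hearts. Lox, the lysyl oxidase gene, was at 13.6 ± 7.45 FPKM in MI_DCA, 25.3 ± 12.8 FPKM in MI_vehicle and 6.61 ± 2.69 FPKM in sham_vehicle hearts (log2 fold change 1.70 with an SE of 0.33, adjusted p = 0.000899 for MI_vehicle over sham_vehicle), ahead of Loxl3 (1.30) and Loxl2 (1.197).

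Proteins that organise fibrils went both ways, with 3 of 11 higher and 4 lower in MI_DCA hearts, and 6 higher and 4 lower in MI_vehicle hearts. Thbs1, thrombospondin 1, rose most (1.995 in MI_DCA and 3.08 in MI_vehicle hearts), followed in size by Dpt (-1.05) and Dcn (-1.03) in MI_DCA hearts and by Fn1 (1.48) and Postn (1.45) in MI_vehicle hearts. The basement membrane partners of type IV collagen did not follow it as a group. Of 13 tested laminins, nidogens and related genes, 0 rose and 2 fell in MI_DCA hearts (Lamb2 -0.45, Lama2 -0.41), and 3 rose and 4 fell in MI_vehicle hearts (among them Lamb3 -0.69 and Lamb2 -0.54). Their median was -0.07 in MI_DCA and 0.08 in MI_vehicle hearts, each over sham_vehicle.

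Collagen receptors rose in 2 of 6 cases in MI_DCA hearts (Lair1 0.73, Ddr1 0.59) and in 6 of 7 in MI_vehicle hearts (Lair1 1.15, Ddr1 0.89, Itgb1 0.78). For collagen breakdown, 5 of 12 genes rose and 3 fell in MI_DCA hearts, and 6 rose and 4 fell in MI_vehicle hearts. Timp1, an inhibitor of matrix metalloproteinases, was at 168 ± 123 FPKM in MI_DCA, 354 ± 194 FPKM in MI_vehicle and 20.8 ± 5.38 FPKM in sham_vehicle hearts (SD, n = 6), with log2 fold changes of 2.63 for MI_DCA and 3.83 for MI_vehicle. The protease gene Ctss rose (1.28 in MI_DCA and 1.99 in MI_vehicle hearts) and the inhibitor gene Timp4 fell (-1.08 in MI_DCA and -1.87 in MI_vehicle hearts). In the TGF-beta pathway, known to raise collagen transcription, 3 of 11 genes rose in MI_DCA hearts, and 10 of 11 rose and 1 fell in MI_vehicle hearts. The ligand gene Tgfb2 rose by 1.46 on the log2 scale in MI_DCA and 1.97 in MI_vehicle hearts, and Tgfb1 by 0.69 in MI_DCA and 1.14 in MI_vehicle hearts. Between MI_DCA and MI_vehicle hearts 0 genes of the 10 lists passed, with medians from -0.50 for crosslinking to -0.07 for basement membrane partners, beside -0.06 over all genes. The log2 fold changes of abundant genes of each list were P4hb (-0.39), Ppib (-0.20) and P4ha1 (-0.45) for prolyl hydroxylation, and Plod1 (-0.06), Plod3 (-0.26) and Colgalt1 (-0.37) for lysyl hydroxylation and glycosylation. They were Hspa5 (-0.002), Serpinh1 (-0.11) and Fkbp9 (-0.07) for chaperones and export, and Pcolce (-0.23), Bmp1 (-0.23) and Pcolce2 (-0.16) for propeptide cleavage. Next were Loxl1 (-0.50), Lox (-0.83) and Loxl2 (-0.64) for crosslinking, and Sparc (-0.06), Bgn (-0.36) and Dcn (0.09) for fibril assembly. Then came Hspg2 (-0.09), Lamb2 (0.09) and Lamc1 (-0.07) for basement membrane partners, and Itgb1 (-0.25), Ddr1 (-0.30) and Mrc2 (-0.34) for collagen receptors. The last were Ctsb (-0.12), Timp1 (-1.19) and Ctss (-0.70) for collagen breakdown, and Tgfb1 (-0.45) and Tgfbr2 (-0.12) for TGF-beta control of collagen genes.

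Markers of cell types were counted in the same way, beside the same shares of all tested genes (15.5% higher and 8.33% lower in MI_DCA, and 38.3% higher and 20.1% lower in MI_vehicle hearts, each over sham_vehicle). Between MI_DCA and MI_vehicle hearts 0 markers of any list passed. Of 12 fibroblast markers, 1 rose and 7 fell in MI_DCA hearts and 2 rose and 7 fell in MI_vehicle hearts, each over sham_vehicle. Their summed level was 362 to 1105 FPKM in MI_DCA, 368 to 1005 FPKM in MI_vehicle and 1248 to 1536 FPKM in sham_vehicle hearts, with no overlap between infarcted and sham_vehicle hearts. Most of this sum was Gsn (means of 271, 212 and 582 FPKM in MI_DCA, MI_vehicle and sham_vehicle hearts) and Dcn (246, 221 and 454 FPKM). The sum therefore mainly follows these 2 genes. Dcn, Dpt and Lum stand both in this list and among the fibril proteins, and Ddr2 also among the receptors. Of 6 markers of activated fibroblasts, which include Postn, 2 rose in MI_DCA and 4 in MI_vehicle hearts, and their sum was 153 to 347 FPKM in MI_DCA, 160 to 438 FPKM in MI_vehicle and 128 to 178 FPKM in sham_vehicle hearts. A large part of it was Acta2, with means of 119 FPKM in MI_DCA, 165.5 FPKM in MI_vehicle and 99.9 FPKM in sham_vehicle hearts. Endothelial markers, 10 in number, gave 0 calls in MI_DCA hearts and 2 rises and 4 falls in MI_vehicle hearts, with a sum of 1533 to 2554 FPKM in MI_DCA, 1309 to 2026 FPKM in MI_vehicle and 1725 to 3138 FPKM in sham_vehicle hearts. Most of this sum was Fabp4, with means of 1547 FPKM in MI_DCA, 1102 FPKM in MI_vehicle and 1986 FPKM in sham_vehicle hearts. The sum therefore mainly follows that 1 gene. Smooth muscle and pericyte markers had 1 rise and 3 falls of 9 in MI_DCA hearts and 1 rise and 5 falls in MI_vehicle hearts, with sums of 206 to 402 FPKM in MI_DCA, 225 to 329 FPKM in MI_vehicle and 359 to 452 FPKM in sham_vehicle hearts. Rgs5 was a large part of these sums, with means of 125 FPKM in MI_DCA, 101 FPKM in MI_vehicle and 215 FPKM in sham_vehicle hearts. Monocyte and macrophage markers rose in 7 of 10 cases in MI_DCA and in 10 of 10 in MI_vehicle hearts, with sums of 285 to 807 FPKM in MI_DCA, 481 to 1122 FPKM in MI_vehicle and 255 to 423 FPKM in sham_vehicle hearts. Most of these sums was Lyz2, with means of 287 FPKM in MI_DCA, 421 FPKM in MI_vehicle and 244 FPKM in sham_vehicle hearts. Cardiac muscle markers had 0 rises and 4 falls of 10 in MI_DCA hearts and 1 rise and 8 falls in MI_vehicle hearts, and all 5 tested neutrophil markers rose in both. None of these 7 lists had a gene at 0 in every heart of a group. The part of cell numbers in the collagen differences was not tested.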

How the data were processed

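Libraries were made by hybrid capture (RNA Access) from total RNA and read as single ends of 50 bases, per the labels' protocols. The deposited values are FPKM per gene and transcript, rounded to 2 decimals. Per the submitters' processing notes, Bowtie2 2.2.5, RSEM 1.2.12, DESeq2 1.4.5 and GRCm38.p6 were named, without their roles. No counts were used here, so depth was estimated from the steps between low FPKM values (search from 8000000 to 16000000 mapped reads).

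Values were compared as log2(FPKM + 1) with limma 3.58.1 (intensity trend, R 4.3.3) for each pair of groups, on genes with at least 1 FPKM in 6 of 12 libraries. Lower genes and chain ratios were compared by exact permutation of the 12 libraries, whose smallest p is 0.00216. P-values were adjusted over all genes tested, or over the 30 ratio tests. Values are given for each collagen with a mean of at least 10 FPKM in any group, or called with a log2 fold change of at least 0.5 in size. From each list of related genes the 3 called genes with the largest change are named, or the 3 with the highest mean where none was called. In 2 of these lists, 1 gene that this rule picks is not reported here. Other collagens are described after their values were seen. The members and lists were chosen with earlier results of these data known. Alternatives were other pseudocounts, filters, scalings, fits, a replicate block and leaving out each library. Rounding limits precision in collagens under 0.1 FPKM.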

Additional observations from a re-analysis of the deposited data

Results flagged for a closer look

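Dixon's test at the 95% level was applied to the 6 hearts of each group for 21 collagen genes, 63 groups in all, and 3 hearts stood apart, where chance alone marks about 1 group in 20. MI_DCA heart 2 had 11.09 FPKM of Col18a1, far above the other 5 MI_DCA hearts. MI_vehicle heart 6 had 303.3 FPKM of Col3a1, far above the other 5 MI_vehicle hearts. MI_vehicle heart 4 had 0.95 FPKM of Col4a4, the heart of its group nearest to the sham_vehicle hearts.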

How the results depend on the processing

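Of 708 log2 fold changes of collagen genes recomputed without 1 heart, 643 kept direction and side of the threshold, 55 lost their call, 7 gained one and 3 changed sign. Under the other settings the counts were 510, 15, 4 and 1 of 530. For chain ratios they were 332, 12, 3 and 13 of 360 without 1 heart, and 52, 8, 0 and 0 of 60 otherwise. All 8 of these losses came with the replicate block, tested by sign-flipping, which could hardly pass after adjustment. For genes under the minimum 69 of 70 were kept.

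Without 1 heart, MI_DCA over sham_vehicle gave 741 to 2623 genes higher and 319 to 1496 lower, and 3 to 9 collagens higher and 1 to 2 lower. MI_vehicle over sham_vehicle gave 1 to 3 collagens lower, and MI_DCA over MI_vehicle 0 to 1 genes lower. Signs changed, without 1 heart, for Col1a2 (-0.20 to 0.014), Col6a2 (-0.18 to 0.022) and Col16a1 (-0.16 to 0.0027) in MI_DCA over sham_vehicle, each without MI_DCA heart 4. They also changed for the ratios Col5a1 to Col5a2 (-0.083 to 0.0089, MI_DCA over sham_vehicle), Col5a2 to Col1a2 (-0.15 to 0.0029, MI_DCA over MI_vehicle) and Col4a1 to Col4a2 (-0.031 to 0.014 for MI_DCA and -0.029 to 0.0070 for MI_vehicle over sham_vehicle, -0.019 to 0.027 for MI_DCA over MI_vehicle). None of these values had passed.

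Quantile normalization gave 1555 genes lower in MI_DCA and 3693 in MI_vehicle over sham_vehicle. It shifted the median of all genes by -0.06 and -0.15, and median-ratio scaling by -0.06 and -0.12, and the share of calls that were higher fell to 45.6% and 46.3% with quantiles and to 48.0% and 49.7% with median ratios, against 65.0% and 65.6%. Collagens called lower were 1 with either other pseudocount for MI_vehicle over sham_vehicle, 6 with no filter and 5 with a mean filter of 0.3 FPKM, and 6 and 4 with these filters for MI_DCA over sham_vehicle. The filters add low genes to the tests. Col6a2 (MI_vehicle over sham_vehicle) turned to -0.0079 under median ratios, and Col22a1 (MI_DCA over MI_vehicle) to 0.039 with a pseudocount of 0.1. The cause was not tested.

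Hearts were not seen to pair by replicate number over all genes. Infarcted hearts were not uniform, so a weaker pairing could have been missed. Same-numbered hearts had correlated deviations of -0.09 to 0.22 (MI_DCA and sham_vehicle), -0.05 to 0.14 (MI_vehicle and sham_vehicle) and -0.44 to 0.69 (MI_DCA and MI_vehicle), and 1 of 6 was closest to its own number in each. With the replicate block, MI_DCA over sham_vehicle gave 1124 genes higher, 572 lower and 5 collagens higher, and 0 ratios passed by sign-flipping, whose smallest p is 0.0312. The block took the adjusted p of Col6a3 (0.0523), Col8a1 (0.0602) and Col18a1 (0.0888) in MI_DCA over sham_vehicle, and of Col20a1 (0.0965) in MI_vehicle over sham_vehicle, above the threshold, and that of Col3a1 (0.0439) and Col14a1 (0.0390) in MI_vehicle over sham_vehicle below it.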
